A study of Mus musculus with 24 samples.

Results

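The mouse gene for the tumour suppressor p53, Trp53, and 3 of its classical transcriptional targets, Mdm2, Cdkn1a and Ccng1, were examined in lists of chromatin regions bound by 2 pausing factors of RNA polymerase II. The 4 genes were chosen by name. Their regions were taken by position alone, as every listed region that overlapped a fixed mm10 window of 16 to 32 kb around each gene. This gave 94 regions of the 1811308 in 6 lists: 25 at Trp53, 32 at Mdm2, 18 at Cdkn1a and 19 at Ccng1.

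The lists came from chromatin immunoprecipitation followed by sequencing (ChIP-seq) of mouse embryonic stem cells of the E14 line, cultured with serum and LIF. All 6 libraries carried the genotype labelled Nelfb deg, a degron allele through which the NELFB protein bears an HA tag and can be destroyed with dTAG-13, and all were labelled as Control treatment. There were 2 libraries each of NELFB:HA (precipitated through the HA tag), NELFE and SPT5. The labels do not state whether the cells were 1 clone or whether the replicates were separate cultures, so the p-values below measure only the spread between these libraries.

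NELF, of which NELFB and NELFE are subunits, and DSIF, of which SPT5 is a subunit, hold RNA polymerase II in a paused state shortly downstream of the start site. When the kinase P-TEFb releases the polymerase, NELF is lost while SPT5 travels on with it through the gene. p53 is a transcription factor that is kept low by the ubiquitin ligase MDM2 and that, after DNA damage, switches on genes for cell cycle arrest, apoptosis and repair, among them Mdm2 itself.

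The promoter sequences, except that of Trp53, are shown because the windows were read relative to these start sites and because 2 of them hold a p53 binding sequence. Each is the 250 bases that end just before a start site, 5′ to 3′ on the gene's own strand, from the RefSeq table of promoters on GRCm38.p6, the assembly called mm10. Capitals mark a p53 site in the Cdkn1a upstream and Ccng1 promoters and the GC box GGGCGG, or its reverse complement CCGCCC, in the other 2.
Cdkn1a upstream start, chr17:29090729-29090978, plus strand: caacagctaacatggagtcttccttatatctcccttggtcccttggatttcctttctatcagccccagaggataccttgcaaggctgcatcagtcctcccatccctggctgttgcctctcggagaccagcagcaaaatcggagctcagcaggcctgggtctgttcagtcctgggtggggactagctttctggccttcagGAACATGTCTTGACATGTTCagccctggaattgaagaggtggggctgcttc
Cdkn1a downstream start, chr17:29093519-29093768, plus strand: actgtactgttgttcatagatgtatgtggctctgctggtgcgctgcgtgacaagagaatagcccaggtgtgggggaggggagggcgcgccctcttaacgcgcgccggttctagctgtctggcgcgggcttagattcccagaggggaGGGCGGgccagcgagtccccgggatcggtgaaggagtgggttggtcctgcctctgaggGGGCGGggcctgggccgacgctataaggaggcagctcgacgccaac
Mdm2, chr10:117710759-117711008, minus strand: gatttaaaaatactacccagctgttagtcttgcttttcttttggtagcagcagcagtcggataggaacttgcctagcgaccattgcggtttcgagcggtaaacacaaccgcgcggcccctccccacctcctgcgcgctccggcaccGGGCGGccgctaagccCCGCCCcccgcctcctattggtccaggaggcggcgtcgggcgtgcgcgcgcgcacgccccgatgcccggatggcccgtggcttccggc
Ccng1, chr11:40755287-40755536, minus strand: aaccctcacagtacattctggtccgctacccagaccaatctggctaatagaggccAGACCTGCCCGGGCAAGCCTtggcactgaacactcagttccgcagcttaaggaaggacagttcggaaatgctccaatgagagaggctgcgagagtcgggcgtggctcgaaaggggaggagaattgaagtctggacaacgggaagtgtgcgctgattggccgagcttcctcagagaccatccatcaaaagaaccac
The promoters were searched on both strands over 300 bases, these 250 and the 50 that follow the start. A full p53 site, meaning a pair of adjoining p53 half-sites with at most 1 mismatch to the published consensus, was present in 29 of 32851 promoters in the table (0.0883%). The site at the upstream Cdkn1a start matched 19 of 20 positions and ended 31 bases before the start. At Ccng1 the site also matched 19 of 20 positions, and it ended 175 bases before the start. No full site was found in the 300 bases searched at the downstream Cdkn1a start, at Mdm2 or at Trp53. Mdm2 and Trp53 each held 1 half-site there, which 8.36% of all promoters did. Sequence outside these bases, such as introns farther downstream, was not searched. GGGCGG occurred in 35.7% of promoters, on either strand. It was found 2 times each at the downstream Cdkn1a start and at Mdm2, neither of which held a full p53 site in the bases searched. A match is a description of the letters and not a measured binding event, and the full-site search was added after the peak values had been seen.

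At each of the 4 genes, in each of the 6 libraries, the region of highest pileup in the window lay over a RefSeq start site. These 24 leading regions were all strong, here meaning that the authors' q-value was 0.01 or less. With a margin of 500 bp around the start, 4 of 4 genes had a strong start-site region in both libraries of each antibody. The background over 17491 protein-coding genes was 36.5% with the HA antibody, 42.7% with NELFE and 31.1% with SPT5. At a stricter q-value of 1e-05, the 4 genes still passed with NELFB:HA (background 27.4%) and with NELFE (36.3%), but only 2 of 4 passed with SPT5, where the background was 17.6%. Those 2 were Trp53 and Cdkn1a.

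The leading regions stood apart from the remaining 70 in their windows in fold enrichment over input, which is the authors' value and, in broad calling, an average over the region. Leading folds ran from 2.59 to 11.8 with a median of 5.56. The other 70 regions had folds of 1.44 to 2.80 with a median of 1.75, and 3 of them were strong. Since leading regions were picked by pileup, this gap describes the choice and was not tested.

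**Figure D1:**
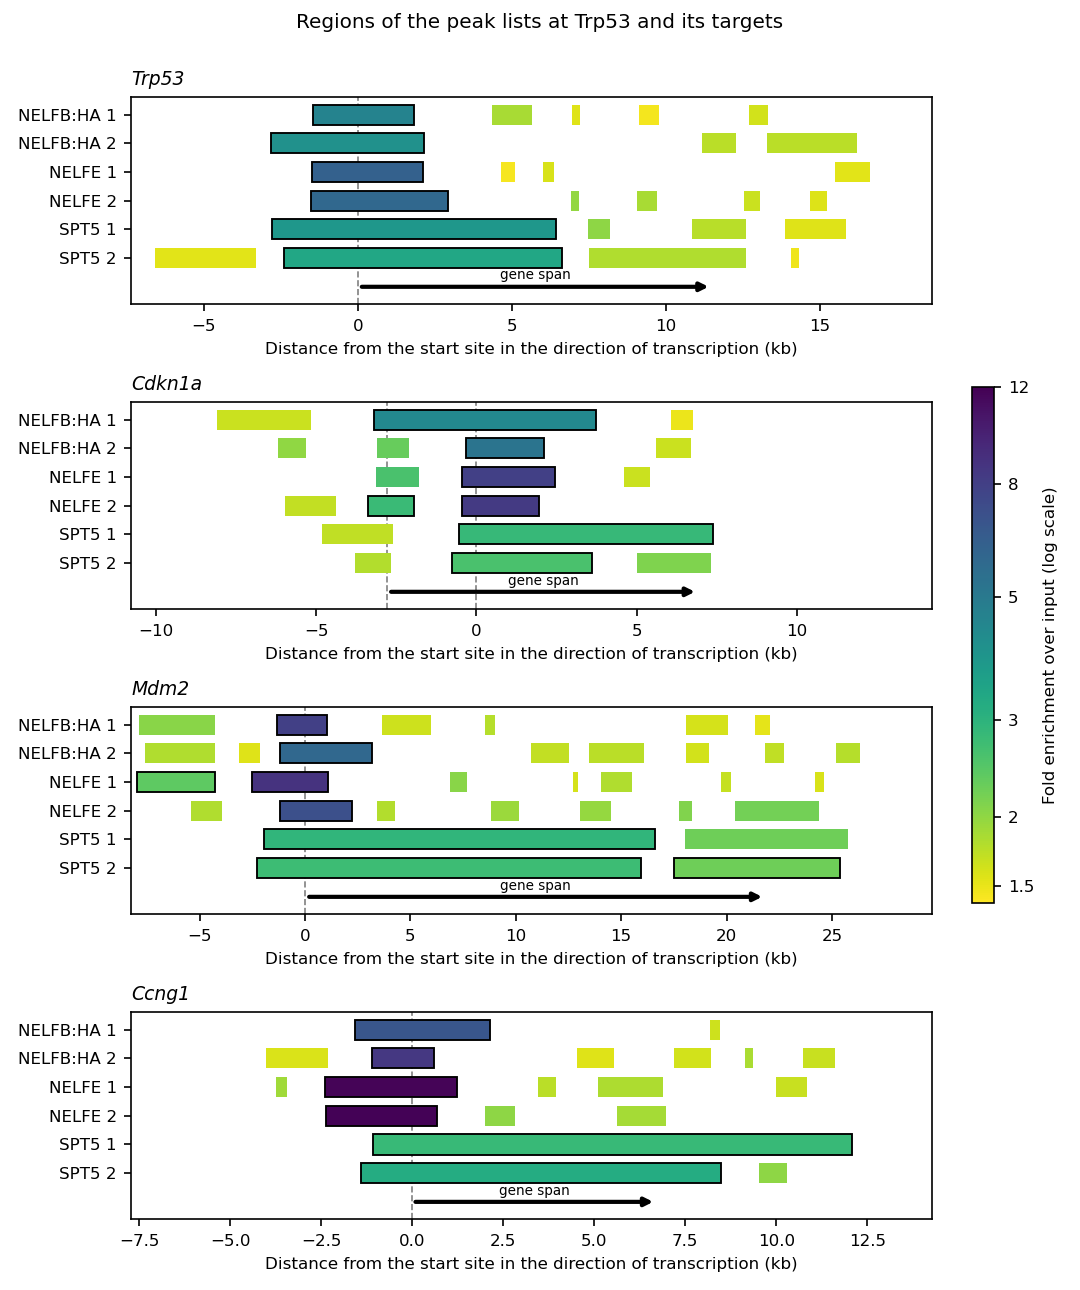
Regions listed in each library at the 4 genes, drawn by distance from the start site in the direction of transcription (kb). Darker shades mark higher fold enrichment over input (log scale), and black outlines mark strong regions. The SPT5 leading regions run far into the gene, by 3614 to 16586 bp, whereas the NELFB:HA and NELFE leading regions end 587 to 3726 bp downstream.

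Trp53, the p53 gene itself, lies on chromosome 11 from 69580348 to 69591873 on the plus strand. Its leading region was 3286 and 4952 bp long in the NELFB:HA libraries, 3620 and 4433 bp in the NELFE libraries and 9207 and 9044 bp in the SPT5 libraries. Both SPT5 lengths lay above all 4 NELF lengths, and the NELFB:HA and NELFE ranges overlapped. In the first SPT5 library the region ran from 69577585 to 69586791 and in the second from 69577951 to 69586994.

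The fold at Trp53 was 4.58 and 4.08 with NELFB:HA, 6.20 and 5.86 with NELFE and 3.86 and 3.34 with SPT5. By pileup the region ranked 1741 and 1806 in the NELFB:HA lists, 2113 and 1939 in the NELFE lists and 499 and 680 in the SPT5 lists. Trp53 was the highest ranked of the 4 genes in both SPT5 lists. These ranks are positions within lists of 137102 to 462153 regions and cannot be compared between lists. Each Trp53 leading region also covered both start sites of Wrap53, a telomerase and Cajal body protein gene on the opposite strand whose nearer start is 109 bp and whose farther start is 1110 bp away, so the signal cannot be assigned to 1 of the 2 genes.

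Mdm2, which encodes the ligase that marks p53 for destruction, lies on chromosome 10 from 117688875 to 117710758 on the minus strand. The leading region measured 2391 and 4337 bp with NELFB:HA, 3616 and 3414 bp with NELFE, and 18512 and 18207 bp with SPT5. Both SPT5 regions were thus longer than any of the 4 NELF regions, and they were the 2 longest of all 24 leading regions. They ended at nearly the same place inside the gene, at 117694172 in the first library and 117694814 in the second.

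Mdm2 had the highest rank of the 4 genes in both NELFE lists, at 594 and 728, and its ranks with NELFB:HA were 619 and 974. With SPT5 the ranks were 6565 and 7432, the lowest of the 4 genes in the second list and the second lowest in the first. The folds were 7.97 and 5.86 with NELFB:HA, 8.73 and 7.13 with NELFE and 2.94 and 2.76 with SPT5. At this gene, as at each of the 4, every SPT5 fold was below every NELF fold. The same order held for the median folds of the 5127 genes with a strong start-site region for all 3 antibodies. These medians were 3.23 and 3.14 with SPT5, 5.49 and 4.22 with NELFB:HA and 6.51 and 6.78 with NELFE. The order is therefore not particular to these genes.

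A second SPT5 region lay downstream at the 3′ end of Mdm2 in both libraries. It ran from 117684987 to 117692745 (7759 bp, fold 2.25) in the first library and from 117685385 to 117693272 (7888 bp, fold 2.26) in the second, where it was strong. The 3′ end of Cpm, a carboxypeptidase gene on the opposite strand that ends at 117687352, lies 1522 bp from the end of Mdm2 and under both of these regions. In the 4 NELF libraries another region began 3927 to 4273 bp upstream of the Mdm2 start, with folds of 2.05 and 1.80 for NELFB:HA and 2.39 and 1.81 for NELFE, and it was strong in the first NELFE library alone. No SPT5 region began there.

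Cdkn1a, which encodes the cyclin-dependent kinase inhibitor p21, lies on chromosome 17 from 29090979 to 29100722 on the plus strand and has 2 RefSeq start sites, 2790 bp apart. The leading region was 6926 and 2441 bp long with NELFB:HA, 2898 and 2402 bp with NELFE and 7924 and 4366 bp with SPT5. Here the SPT5 values overlapped those of NELFB:HA but not those of NELFE. The first NELFB:HA region was long because it ran from 29090570 to 29097495 and took in both starts, whereas the other 5 leading regions lay over the downstream start only.

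In those 5 libraries the upstream start, the one with the p53 site shown above, had a separate and weaker region. Its fold was 2.31 in the second NELFB:HA library, 2.58 and 2.80 in the NELFE libraries and 1.72 and 1.79 in the SPT5 libraries, and only the 2.80 region was strong. The leading regions over the downstream start had folds of 5.26, 7.96, 8.30, 2.85 and 2.59 in the same libraries. The upstream fold was lower in 5 of 5 libraries, a description that carries no test because the leading region was chosen by pileup.

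In the first NELFB:HA library, whose joined region had a fold of 4.37, the starts cannot be compared. Cdkn1a leading regions ranked 3621 and 2204 with NELFB:HA, 2185 and 1480 with NELFE and 3645 and 3431 with SPT5. Cdkn1a had the lowest SPT5 fold of the 4 genes in the second library.

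Ccng1, which encodes cyclin G1, lies on chromosome 11 from 40748552 to 40755309 on the minus strand. Its leading region was 3708 and 1692 bp long with NELFB:HA, 3618 and 3045 bp with NELFE and 13148 and 9888 bp with SPT5. The SPT5 regions were longer than all 4 NELF regions. They covered the whole gene, 6758 bp, and passed its 3′ end by 5346 and 1742 bp.

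Ccng1 had the highest fold of the 4 genes in 3 of the 4 NELF libraries: 8.49 in the second NELFB:HA library and 11.8 in both NELFE libraries. The first NELFB:HA library gave 6.78, below the 7.97 of Mdm2. With SPT5 the folds were 2.82 and 3.19. Among the 5127 genes with a strong start-site region for all 3 antibodies, the NELFE folds of Ccng1 stood at percentiles 93.7 and 91.6 and its SPT5 folds at percentiles 25.8 and 52.4.

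**Figure D2:**
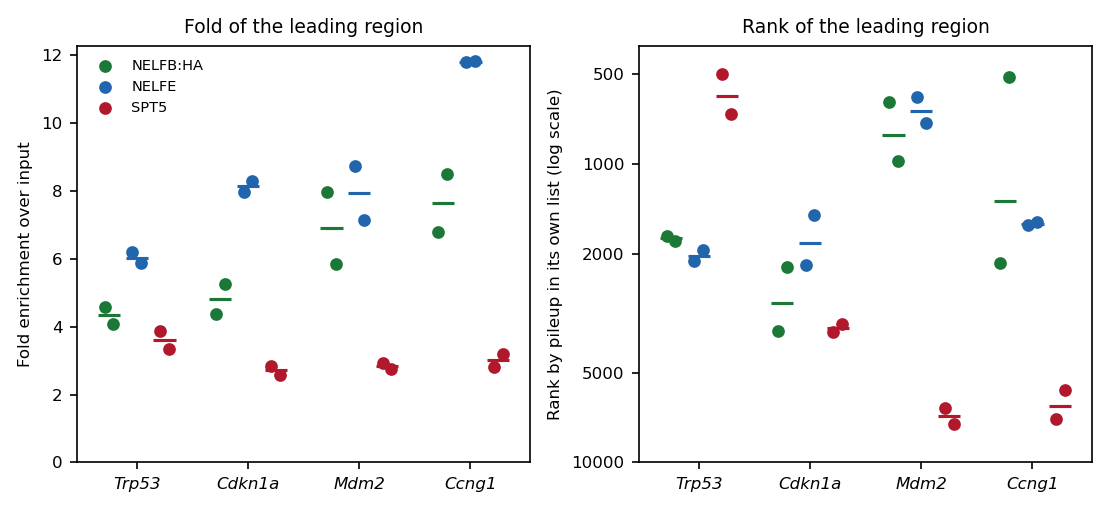
Authors' fold enrichment over input (left) and rank by pileup within the library's own list (right, log scale, high ranks at the top) of the leading region at each gene, with points for libraries and bars for means of 2. Trp53 is ranked 499 and 680 by SPT5, ahead of the other 3 genes, and Mdm2 is ranked 594 and 728 by NELFE.

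Set against the strong regions of the same list alone, the SPT5 leading regions spread widely by pileup. The mean percentile of the 2 SPT5 libraries was 92.6 for Trp53, 54.8 for Cdkn1a, 22.7 for Ccng1 and 17.0 for Mdm2. With NELFE these percentiles were 82.4, 84.1, 86.3 and 94.3 in the same order of genes, and with NELFB:HA they were 80.8, 69.3, 86.5 and 91.2. The SPT5 mean of Ccng1 averaged 11.8 and 33.6, and that of Mdm2 16.5 and 17.6, so the order of these 2 genes differed between the SPT5 libraries. Mdm2 was the highest of the 4 in 3 of the 4 NELF libraries, the exception being the second NELFB:HA library, where Ccng1 stood at 94.0 and Mdm2 at 88.4. The 2 genes lowest by SPT5 pileup, Mdm2 and Ccng1, also had the longest SPT5 leading regions, with means of 18359.5 and 11518 bp. A region's pileup is a value for the whole region and not the signal at its start site. Whether pileup rank goes with region length was not tested. These percentiles carry no test.

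The comparison between antibodies asked whether the elongation factor SPT5 and the NELF subunits marked these genes over different lengths. The mean leading region with SPT5 was 9125.5 ± 115 bp at Trp53, 18359.5 ± 216 bp at Mdm2, 6145 ± 2516 bp at Cdkn1a and 11518 ± 2305 bp at Ccng1 (SD, n = 2). With NELFE the means were 4026.5 ± 575, 3515 ± 143, 2650 ± 351 and 3331.5 ± 405 bp in the same order of genes. With NELFB:HA they were 4119 ± 1178, 3364 ± 1376, 4683.5 ± 3171 and 2700 ± 1426 bp.

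SPT5 exceeded NELFE by 5099 bp at Trp53, 14844.5 bp at Mdm2, 3495 bp at Cdkn1a and 8186.5 bp at Ccng1, each more than the pooled SD of 415, 183, 1796 and 1655 bp. Both SPT5 libraries were longer than both NELFE libraries at 4 of 4 genes, against a background of 41.0% of the 5127 genes. The two-sided exact permutation p was 0.33 at each gene, the smallest that 2 libraries against 2 can give, and 0.571 after Benjamini-Hochberg adjustment over 12 comparisons. At Cdkn1a the difference was 5026 bp between the first libraries and 1964 bp between the second, so its size rests on which pair is used.

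Against NELFB:HA, SPT5 was longer in every pair of libraries at 3 of 4 genes, against a background of 32.9%. The differences were 5006.5 bp at Trp53, 14995.5 bp at Mdm2 and 8818 bp at Ccng1, beyond pooled SDs of 837, 985 and 1917 bp. At Cdkn1a the difference of 1461.5 bp was smaller than the pooled SD, 2862 bp, and its exact permutation p was 0.667 (adjusted 0.889).

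Between the 2 NELF subunits, the length difference was smaller than the pooled SD at each of the 4 genes. NELFB:HA minus NELFE was 92.5 bp at Trp53, −151 bp at Mdm2, 2033.5 bp at Cdkn1a and −631.5 bp at Ccng1, with pooled SDs of 927, 978, 2256 and 1048 bp. NELFB:HA was longer in every pair at 0 of 4 genes, where the background was 25.8%. The smallest of these 4 exact permutation p-values was 0.667 (adjusted 0.889).

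The SPT5 libraries also had tags of 100 and 101 bp, extended to 206 bp and set against 1 shared input, where the NELF libraries had 50 bp tags extended to 227 bp. In all comparisons with SPT5 the antibody and this batch cannot be told apart.

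**Figure D3:**
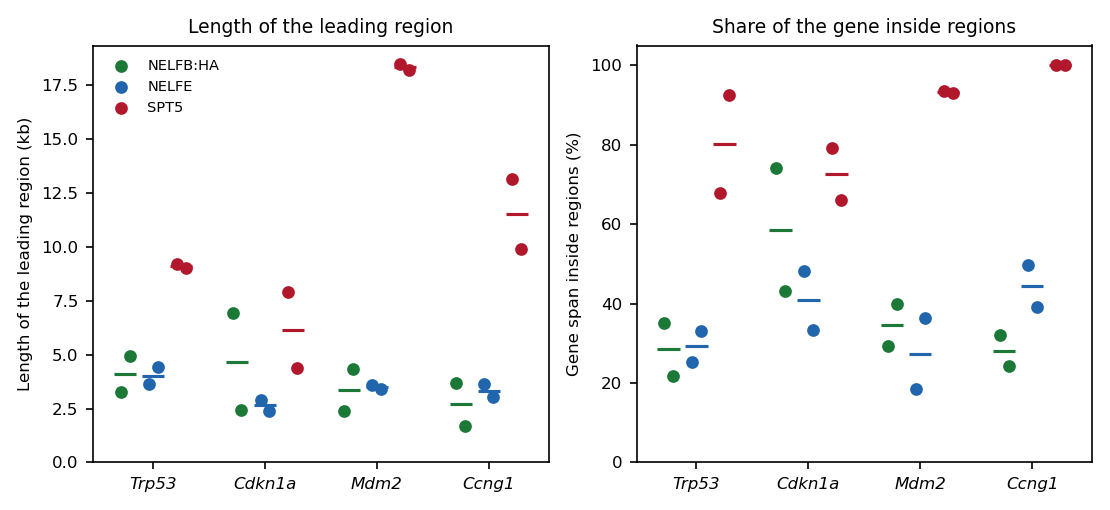
Length of the leading region (kb, left) and percent of the gene's span covered by any listed region (right) in each library, with points for libraries and bars for means of 2. SPT5 points lie above all NELF points for Trp53, Mdm2 and Ccng1 in both panels, and Cdkn1a overlaps NELFB:HA.

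Most of the difference lay downstream of the start. The 8 SPT5 leading regions began 551 to 2774 bp upstream and the 16 NELF leading regions 318 to 3199 bp upstream, measured at Cdkn1a from its downstream start. Downstream, the NELF regions reached 587 to 3726 bp and the SPT5 regions 3614 to 16586 bp. These downstream ranges overlapped only through the first NELFB:HA region at Cdkn1a (3726 bp) and the second SPT5 region there (3614 bp).

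Counted over the whole window, listed regions of any strength covered 13447 and 15473 bp at Trp53 in the SPT5 libraries, 4567 and 6386 bp in the NELFE libraries and 6130 and 8452 bp in the NELFB:HA libraries. At Mdm2 these values were 26271 and 26095, 7969 and 12950, and 8903 and 13835 bp, at Cdkn1a 10153 and 7811, 5032 and 5419, and 10223 and 5381 bp, and at Ccng1 12354 and 10649, 7032 and 5206, and 3997 and 6214 bp. SPT5 covered more than NELFE in every pair of libraries at all 4 genes and more than NELFB:HA in every pair at Trp53, Mdm2 and Ccng1. The share of all genes with this order was not computed for covered bp, so these counts have no background beside them. SPT5 minus NELFE was 8983.5 bp at Trp53, 15723.5 bp at Mdm2, 3756.5 bp at Cdkn1a and 5382.5 bp at Ccng1, beyond pooled SDs of 1361, 2492, 1187 and 1249 bp (exact permutation p = 0.33 each, adjusted 0.571). At Cdkn1a the excess of SPT5 over NELFB:HA was 1180 bp and smaller than the pooled SD, 2689 bp, with an exact permutation p of 1. Without the second replicates it was −70 bp.

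The share of each gene's span covered by any listed region, strong or not, was added as a measure after the values had been seen. SPT5 regions covered 67.8 and 92.7% of Trp53, 93.5 and 93.0% of Mdm2, 79.1 and 66.0% of Cdkn1a and 100% of Ccng1 in both libraries. NELFE regions covered 25.4 and 33.1% of Trp53, 18.4 and 36.3% of Mdm2, 48.1 and 33.4% of Cdkn1a and 49.6 and 39.1% of Ccng1. The NELFB:HA shares were 35.1 and 21.8%, 29.4 and 39.8%, 74.0 and 43.2% and 32.1 and 24.2% in the same order.

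SPT5 shares were above both NELFE shares at 4 of 4 genes and above both NELFB:HA shares at 3 of 4, Cdkn1a being the exception. How many of the 5127 genes strong with all 3 antibodies show this order was not counted, and their medians also had SPT5 highest. The median over the 5127 genes was 34.5% for SPT5, 17.7% for NELFE and 29.9% for NELFB:HA, but the median gene among these spans 23196 bp and all 4 of the p53 genes are shorter, at 6758 to 21884 bp. SPT5 regions passed the 3′ end by 1081 bp at Trp53 in both libraries, with the same last base at 69592954, and by 419 and 378 bp at Cdkn1a. At Trp53 these were separate regions that were not strong (folds 1.76 and 1.80), and both leading regions ended inside the gene. At Cdkn1a the leading region passed the end in the first SPT5 library only. In the second a separate region that was not strong did so. NELF regions also passed the 3′ end in some libraries: by 754 bp at Trp53 in the second NELFB:HA library, by 159 and 841 bp at Mdm2 with NELFB:HA and 2491 bp in the second NELFE library, and by 146 and 231 bp at Ccng1 with NELFE. At Ccng1 the NELFB:HA shares were both below the NELFE shares, by 16.2 percentage points on average (exact permutation p = 0.33, adjusted 0.50).

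Set among the 5127 genes, Mdm2 stood out most by the ratio of SPT5 to NELFE length. The ratio was 5.22 at Mdm2, 3.46 at Ccng1, 2.32 at Cdkn1a and 2.27 at Trp53, at percentiles 95.1, 88.5, 75.8 and 74.7. The median ratio was 1.46 over all 5127 genes. These percentiles describe positions and carry no test.

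**Figure D4:**
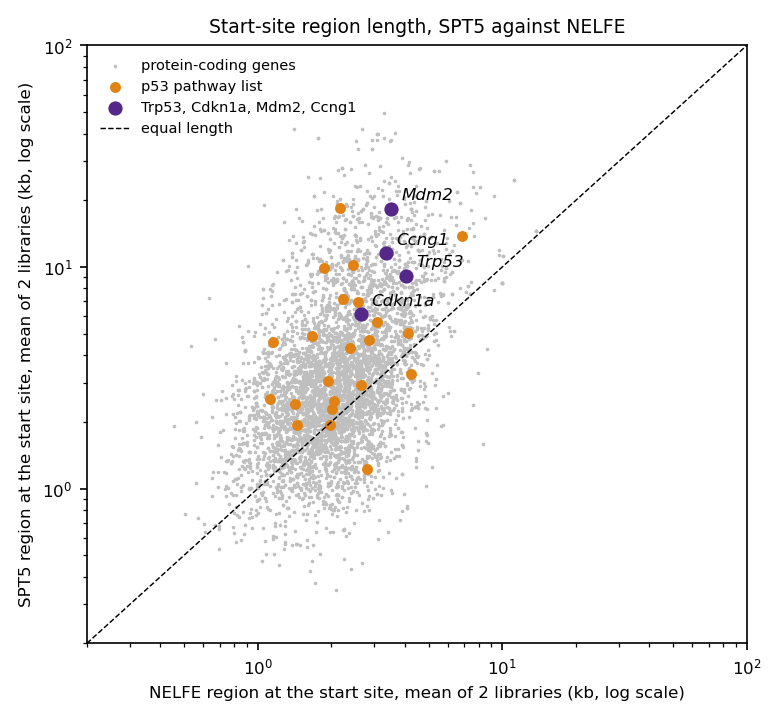
Mean length of the start-site region with NELFE (x axis) against SPT5 (y axis), both in kb on log scales, for 5127 genes strong with all 3 antibodies, with the p53 list and the 4 genes marked. The 4 genes lie above the line of equal length, Mdm2 farthest, with 18359.5 bp for SPT5 and 3515 bp for NELFE.

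The wider p53 pathway was described with a list of 39 other genes, of which 30 had a start site in the promoter table. A strong start-site region in both libraries was found for 25 of 30 genes with NELFB:HA, 27 with NELFE and 23 with SPT5, and for 22 with all 3 antibodies. Over the 17491 protein-coding genes the shares were 36.5, 42.7 and 31.1%, and 29.3% with all 3. By role, this was 7, 7 and 7 of 8 apoptosis genes, 5, 6 and 5 of 6 arrest genes, 8, 9 and 8 of 11 regulators of p53 and 5, 5 and 3 of 5 repair and metabolism genes, in the order NELFB:HA, NELFE and SPT5. At a q-value of 1e-05 12 of 30 genes of the list were strong with SPT5, against 17.6% of all protein-coding genes.

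Within those 22 genes, SPT5 regions were longer than NELFE regions in every pair at 12 and longer than NELFB:HA regions at 7, and NELFB:HA regions were longer than NELFE regions at 8. The shares over the 5127 genes were 41.0, 32.9 and 25.8% in the same order, so the 7 of 22 for SPT5 over NELFB:HA was close to the background. The median ratio of SPT5 to NELFE length over the list was 1.75, between the 1.46 of all genes and the 2.89 of the 4 genes. The list's median SPT5 length was 4458 bp, against 2964 bp over all 5127 genes and 10321.8 bp over the 4.

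The 5 genes of the list with the highest mean percentile by pileup were Sesn2 (99.8), which encodes a stress-induced inhibitor of mTORC1 signalling, Ei24 (99.6), Ppm1d (99.6), a phosphatase that dampens p53 signalling, Bax (99.5), a pore-forming apoptosis protein, and Gtse1 (99.5). Sesn2 had folds of 9.88 and 6.81 with NELFB:HA, 10.5 and 12.5 with NELFE and 4.89 and 3.87 with SPT5. All 5 were strong in all 6 libraries.

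Bax is short, at 5209 bp, and its start-site region spanned 13457 and 14255 bp in the SPT5 libraries. It was also long in 1 library of each NELF subunit, at 10680 bp in the first NELFB:HA and 11512 bp in the second NELFE library, against 1938 and 2227 bp in the others. At Bax, then, the SPT5 lengths exceeded all 4 NELF lengths, but the NELF replicates disagreed.

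At the other end of the list were Chek2 (96.8), a DNA damage kinase, Sfn (96.4), Hipk2 (96.4), a kinase that phosphorylates p53, Trp53bp1 (95.9), a repair protein that binds p53, and Trp73 (84.8), a p53 family member. Trp73 had folds of 2.52 and 1.64 with NELFB:HA, 2.79 and 2.26 with NELFE and 1.49 and 1.69 with SPT5. Of these 5, Hipk2 alone was strong in both libraries of all 3 antibodies. Fas, a death receptor gene, was the only gene of the 30 with no strong start-site region in any library, and it had a region at all in just 2, of 435 bp (fold 1.92) in the first NELFE library and 649 bp (fold 1.71) in the first SPT5 library.

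As a check of the cell label, 6 of 8 pluripotency genes with a start site in the table (Pou5f1, Sox2, Klf4, Zfp42, Tdgf1 and Lin28a) were strong with all 3 antibodies. The others were Nanog and Esrrb. Nanog was strong in at least 1 library but in both libraries of no antibody, and Esrrb was strong in no library. Of 4 fibroblast and neural markers, 0 were strong with all 3 antibodies, and 1, Tubb3, was strong in at least 1 library. Over the 17491 protein-coding genes, 29.3% were strong with all 3 antibodies and 8990 genes were strong in no library. Beside that background, the counts over 4 markers say little about other cell types. Primitive endoderm markers were not among those checked. The libraries held 27324697 to 62312558 filtered tags and 137102 to 462153 regions, of which 6978 to 11770 were strong.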

How the data were processed

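The authors called regions with MACS 2.1.1.20160309 in broad mode, per the file headers, 1 library at a time against input, with p cutoffs of 0.01 for strong and 0.1 for linking regions and duplicate tags reduced to 1 per position. As for alignment, the submitters' processing notes name Bowtie2, deepTools, MACS2 and mm10, and settings are not given in the sources used here. The deposited pileup is a signal, the coverage of a region. The deposited fold is a ratio to local input. Each region's deposited significance is on a −log10 scale, as p and as q. The headers say that q was not calculated, yet the column holds values, which were used as q.

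Start sites and gene spans were taken from RefSeq on GRCm38.p6 with Python 3.11.15 and pandas 2.3.3. The leading region is the one of highest pileup in a window, and the start-site region is the one of highest pileup within 500 bp of a start. In 24 of 24 cases they were the same region. Differences between antibodies were tested with two-sided exact permutation tests with Benjamini-Hochberg adjustment. Overlap, coverage and calls of longer regions were checked on simulated data.

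Groups and replicate numbers came from the sample titles. For both NELF antibodies, replicates 1 and 2 of the titles carry the numbers 2 and 3 in the headers, so same-numbered differences and values without a replicate number rest on the titles. The labels give no pairing, so same-numbered libraries were not treated as pairs. The 4 genes, the pathway list and the markers were chosen with earlier results of these data known. The genes named from the pathway list were the 5 with the highest and the 5 with the lowest mean percentile by pileup (the latter among genes with a region in all 6 libraries), and those with no strong region in any library. The other 18 of 24 samples are not analysed here.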

Additional observations from a re-analysis of the deposited data

How the results depend on the processing

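Of 384 values recomputed under alternative settings, 306 were counted as unchanged and 68 as moved, and 10 changed sign. For differences between antibodies under another choice of regions, unchanged meant only that the sign held. Other values also had to move by no more than the spread between replicates (counts by less than 1.5 times). Some differences counted as unchanged moved by more than that spread. An example is covered bp for SPT5 minus NELFE at Trp53, with a pooled SD of 1361 bp. It went from 8983.5 to 5099 bp with regions of q 0.01 or less alone. Every sign change but 1 was in NELFB:HA minus NELFE. SPT5 minus NELFE stayed positive at all 4 genes under every alternative run, in length, covered bp and gene share. With the longest region in place of the leading one, NELFB:HA minus NELFE at Mdm2 became 141 bp. With regions of q 0.01 or less alone, covered bp at Mdm2 became −636 bp and gene share at Ccng1 6.09 percentage points. At q of 1e-05 or less, 12 of 30 pathway genes were strong with SPT5. The cause of these changes was not tested. Leaving out 1 replicate number at a time, the length difference NELFB:HA minus NELFE ran from −334 to 519 bp at Trp53, −1225 to 923 bp at Mdm2, 39 to 4028 bp at Cdkn1a and −1353 to 90 bp at Ccng1. SPT5 minus NELFB:HA length ran from 4092 to 5921 bp at Trp53 and 13870 to 16121 bp at Mdm2, and SPT5 minus NELFE from 4611 to 5587 bp at Trp53. Covered bp at Cdkn1a ran from −38 to 5191 bp (NELFB:HA minus NELFE), −70 to 2430 bp (SPT5 minus NELFB:HA) and 2392 to 5121 bp (SPT5 minus NELFE). At Mdm2 it ran from 12260 to 17368 bp (SPT5 minus NELFB:HA) and 13145 to 18302 bp (SPT5 minus NELFE), and at Ccng1 from −3035 to 1008 bp (NELFB:HA minus NELFE) and 4435 to 8357 bp (SPT5 minus NELFB:HA). Gene share at Trp53 ran from −11.3 to 9.68 percentage points (NELFB:HA minus NELFE). The replicate block leaves every difference as it is by construction and was counted as unchanged. For example, SPT5 minus NELFE length at Trp53 was 5099 bp with an SD of same-numbered differences of 690 bp. Between antibodies, the change in length from replicate 1 to replicate 2 correlated over 5127 genes at −0.00342, 0.00231 and −0.0113. Because each library's regions were called on their own, this cannot show whether same-numbered libraries shared a culture. The labels do not say. With 2 libraries per antibody no test here could pass a threshold, and outlying libraries could not be tested.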

Other observations

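Outside the 4 genes, 3 further genes of the pathway list had long SPT5 start-site regions. They were chosen after their values had been seen. Usp7, a deubiquitinase that acts on MDM2 and p53, had regions of 20875 and 16069 bp with SPT5 against 2427 and 2021 bp with NELFB:HA and 2899 and 1438 bp with NELFE. At Gadd45a, a growth arrest gene, the SPT5 regions were 10977 and 9343 bp long, the NELFB:HA regions 2934 and 5818 bp and the NELFE regions 2068 and 2833 bp. Phlda3, an inhibitor of AKT signalling, had 10972 and 8761 bp with SPT5, 1841 and 3537 bp with NELFB:HA and 2363 and 1369 bp with NELFE. In each of these 3 genes both SPT5 lengths were above all 4 NELF lengths, which follows largely from the choice of long SPT5 regions and carries no test. Bax, Btg2, Chek1 and Sesn2 of the list showed the same order. Over the 5127 genes strong with all 3 antibodies, SPT5 was longer than NELFE in every pair at 41.0% and longer than NELFB:HA at 32.9%.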
